A study of Drosophila melanogaster with 11 samples.

Results

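The nascent transcriptome described here is that of mock Kc cells, taken from the 4 libraries labeled mock among the 11 samples of the study. Kc cells (Kc167) are a Drosophila melanogaster cell line labeled as female and derived from embryos. Mock cells were electroporated with no RNA, whereas the remaining samples received dsRNA against M1BP, Cp190 or a further protein and were not used. At 5 days after electroporation, cells were given 0.2 mM 5-ethynyl uridine (EU) for 1 h, and the labeled RNA was captured and sequenced. Each value is the number of reads counted on the sense strand over a whole gene, introns included. The study's methods speak of biological replicates and of independent experiments but assign no mock library to one, and all libraries come from 1 cell line, so the spread given is that between these libraries.

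EU is a uridine analog that RNA polymerases build into new transcripts, so the captured RNA is weighted toward what was being made during the label rather than toward what had accumulated. Unspliced introns are part of such RNA. Kc cells are usually regarded as hemocyte-like. Hemocytes are the blood cells of the fly, among which plasmatocytes engulf particles and secrete much of the basement membrane, crystal cells carry prophenoloxidase for melanization, and lamellocytes encapsulate large objects.

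The 4 libraries held between 24944604 and 29680851 counts on genes. Levels are given as CPM, the counts set to a common library total after TMM scaling. This scaling gives each library a factor, on the assumption that most genes do not differ between libraries. The density of different genes is compared per kb of gene, as CPM per kb. CPM itself is used for total output and for the limit of transcribed genes. It is not corrected for length, so CPM of genes of unequal length are not densities. A floor of 3 counts was between 0.101 and 0.120 CPM in a library, and a gene with 0 counts in all 4 libraries could have had up to 0.0275 CPM. These limits cover counting error only. Over all genes the libraries fell into 2 pairs. Across 7853 genes, log2 CPM had a Pearson correlation of 0.997 between replicates 1 and 2 and 0.996 between replicates 3 and 4, against 0.983 to 0.989 for the other combinations. The biological coefficient of variation was 5.90% within replicates 1 and 2, 8.97% within replicates 3 and 4, and 16.7% over all 4. No label or method assigns a mock library to an experiment.

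Of 17771 genes, 7542 (42.4%) were transcribed, defined as at least 1 CPM in every mock library. A further 6014 had counts but did not reach 1 CPM in every library, and 4215 had 0 counts in all 4. Among protein-coding genes, 7195 of 13852 (51.9%) were transcribed. The levels of transcribed genes were widely spread, with a median of 12.1 CPM per kb, a 10th percentile of 1.04 and a 90th percentile of 57.4, a 55.1-fold range. Only 291 genes reached 100 CPM per kb in every library.

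Transcription was concentrated in few genes. The 10 genes with the most counts held 6.80, 6.97, 8.12 and 7.55% of all counts in replicates 1 to 4, and the 100 highest held between 24.2 and 27.9%. With 428 genes, 50% of the mean counts was reached. Both shares were higher in replicates 3 and 4 than in replicates 1 and 2. Protein-coding genes held 97.9 to 98.0% of counts in every library and noncoding RNA genes 1.04 to 1.23%.

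The highest levels belonged to genes for an intercellular RNA carrier, translation, metabolism and stress responses. Among genes of at least 1 kb, Arc1 was highest, with 3470, 3453, 3118 and 2994 CPM per kb in replicates 1 to 4. Arc1 encodes a Gag-like protein that forms capsids around its own mRNA in fly neurons. CG15784 followed at 2399 ± 288 CPM per kb (SD, n = 4). Their ranges did not overlap, the lowest library of Arc1 being above the highest of CG15784, at 2695. CG15784 and eEF1alpha1, which delivers aminoacyl-tRNA to the ribosome, did not differ beyond their spread, with eEF1alpha1 at 2183 ± 298 CPM per kb (SD, n = 4). The gene for the cytoplasmic poly(A)-binding protein, pAbp, varied most of the 20 relative to its mean, from 916 and 1145 CPM per kb in replicates 1 and 2 to 2070 and 1655 in replicates 3 and 4. These 4 genes are Arc1 at 14357927 to 14360297, eEF1alpha1 at 11891135 to 11895762 and pAbp at 18140078 to 18147191 on 2R, and CG15784 at 5429571 to 5432526 on X (dm6).

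**Figure D1:**
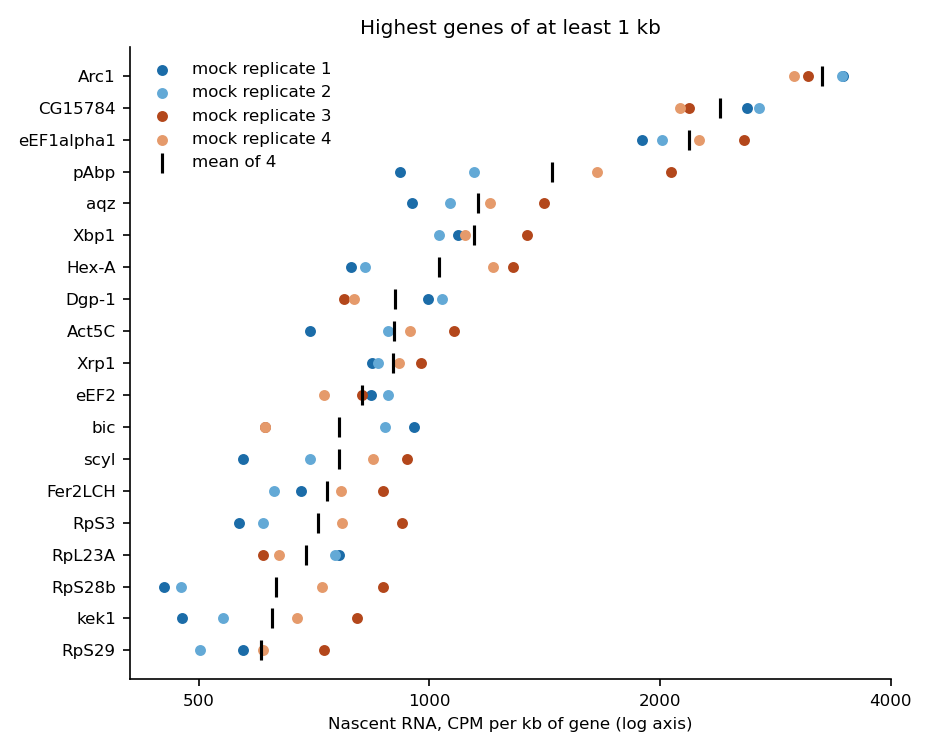
Level of 19 of the 20 highest genes of at least 1 kb. The log axis gives CPM per kb of gene, each point is 1 mock library, and the bar is the mean of the 4. Arc1 stands above the others in every library, while pAbp and RpS28b show the 2 pairs of libraries wide apart.

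The remaining genes of the 20 highest lay between 602 and 1156 CPM per kb. They included Xbp1 (1144 ± 136 CPM per kb, SD, n = 4), a transcription factor of the unfolded protein response, and Hex-A (1028 ± 257), a hexokinase that starts glycolysis. They also included Act5C (900.3 ± 157), a cytoplasmic actin, and Xrp1 (897 ± 60.7), a bZIP protein of DNA damage and cell competition responses. Further down were eEF2, which moves the ribosome along the mRNA, bic, a subunit of the nascent polypeptide-associated complex, scyl, an inhibitor of TOR signaling, the ferritin light chain gene Fer2LCH, and kek1, an inhibitor of the EGF receptor. Ribosomal protein genes among them included RpS3, RpL23A, RpS28b and RpS29. Most neighbors in this order overlapped across libraries, as the plot of these genes shows. If each gene was instead divided by the bases that no other same-strand gene covers, 19 of the 20 stayed and RpS27 entered, an order tried after the data were seen.

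By total output rather than density, the longer genes moved up. Xrp1 (12022 bases on 3R) had the most counts, with 10126, 10299, 11729 and 10978 CPM in replicates 1 to 4, which differed by less than those of most leading genes. pAbp and eEF1alpha1 followed. Lk6, a kinase of the cap-binding factor eIF4E, had 6292 ± 1624 CPM and larp, a translation regulator of the La-related family, had 4798 ± 662 CPM (SD, n = 4). srp, the GATA factor that sets hemocyte fate, ranked ninth, with 3410, 3504, 5572 and 4655 CPM. Other genes on the same strand cover part of srp, so its level was 239 CPM per kb of whole gene but 410 CPM per kb of the bases it alone occupies.

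Genes under 1 kb are ranked apart. The highest was lncRNA:CR40469 (214 bases, X, 122493 to 122706), at 4711, 6055, 18737 and 14613 CPM per kb. RNaseMRP:RNA, the RNA of an enzyme that cuts pre-rRNA, had 3788, 3915, 2194 and 2862 CPM per kb. The signal recognition particle RNA 7SLRNA:CR32864 was at 1173 ± 186 CPM per kb, and the ribosomal protein genes RpL21, RpL41 and RpLP1 were between 845 and 1379 CPM per kb on average. A short gene can hold few reads of 50 bp, and the noncoding RNAs among them are often kept as stable RNAs, so these densities are not set against those of long genes.

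Most members of gene groups used in all growing cells were transcribed, compared with 51.9% of all protein-coding genes. Of 93 genes named as cytosolic ribosomal proteins, 84 were transcribed, with a median of 259 CPM per kb over all 93, and together they held 33640 to 40247 CPM. For mitochondrial ribosomal proteins 69 of 72 were transcribed, with a median of 11.1 CPM per kb. The group for translation elongation and initiation had 39 of 51 transcribed and the proteasome group 33 of 48. Most proteasome genes that were not transcribed carry the name of a main subunit with R or T added. The exceptions were Rpt1, with 0 counts in all 4 libraries, and Prosalpha1, with 1 to 4 counts in a library. Whether their reads were left unassigned was not tested. Glycolysis genes were transcribed in 12 of 13 cases, with Hex-A, Gapdh2 (284 CPM per kb) and Ldh (207 CPM per kb), the lactate dehydrogenase, in front. All 18 cell cycle genes and all 10 genes of the RNA interference machinery reached 1 CPM in every library. AGO2, the nuclease of the small interfering RNA pathway, had 526, 548, 858 and 690 CPM.

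Most of the listed JNK, wound and heat shock genes were transcribed in these mock-electroporated cells. Of all protein-coding genes, 51.9% were transcribed. JNK and wound response genes reached 1 CPM in 11 of 12 cases, including the AP-1 subunit kay (1510, 1526, 1537 and 1465 CPM) and puc, the phosphatase that restrains JNK (698 to 736 CPM). The 4 libraries hardly differed for kay and puc, and the 11 compared genes of this group had a median log2 difference between pairs of -0.02. Single genes did differ between the pairs in either direction, such as Jra (151, 157, 123 and 129 CPM) and bsk (32.7, 34.6, 42.1 and 44.7 CPM). Heat shock and chaperone genes were transcribed in 19 of 22 cases, led by the constitutive Hsc70-4 (526 CPM per kb) and DnaJ-1 (484 CPM per kb), and with the inducible Hsp26 at 300.6 CPM per kb. The near-identical Hsp70 copies lay between 0.133 and 31.8 CPM per kb, values that are uncertain because reads matching several copies are not assigned. JAK/STAT genes were transcribed in 8 of 14 cases, near the share of all protein-coding genes. Among them the cytokine gene upd3 had 514, 537, 624 and 621 CPM, while upd1 stayed at or below 0.217 CPM. Of 25 immune effector and regulator genes only 5 were transcribed, with 3 more at 0 counts within other genes. The 5 included the NF-kB factor genes dl and Dif and the inhibitor gene cact. The antimicrobial peptide genes of the list other than Dro were below 1 CPM in every library.

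Genes that plasmatocytes use for basement membrane and for their identity were transcribed, and several of their receptor genes were not. Of 19 plasmatocyte markers in the table, 14 were transcribed, every one of them also at 5 CPM. Among all protein-coding genes the transcribed share was 51.9%. After srp came the laminin subunits LanA (201 ± 17.7 CPM per kb, SD, n = 4), LanB1 (80.6) and LanB2 (76.2), then the collagen IV gene Col4a1 (22.1), SPARC (20.9), the PDGF/VEGF receptor gene Pvr (17.0) and ush (16.2), a cofactor of srp. Hml, which acts in clotting, had 260 to 273 CPM. The phagocytic receptor genes split. crq had 39.8, 39.8, 44.7 and 47.2 CPM, but eater, NimC1 and Sr-CI stayed below 1 CPM in every library. He, a hemocyte surface marker, did not exceed 0.566 CPM. NimC4 had no counts, but it lies wholly within another gene on the same strand.

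The defining genes of the other blood cell types were low or without counts. The crystal cell factor lz had 1.21, 1.23, 0.796 and 0.551 CPM, the prophenoloxidase gene PPO1 had at most 0.0394 CPM and PPO2 had 0 counts. The fourth gene of this list, the zinc finger gene peb, was transcribed, at 10.9 to 12.9 CPM. Of 6 lamellocyte genes, mys, msn and PPO3 were transcribed and the defining surface gene atilla had 0 counts in all 4 libraries. mys and msn, an integrin subunit and a kinase, are used by many cell types. PPO3, the lamellocyte prophenoloxidase, was low, at 3.13, 3.55, 3.58 and 3.86 CPM.

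**Figure D2:**
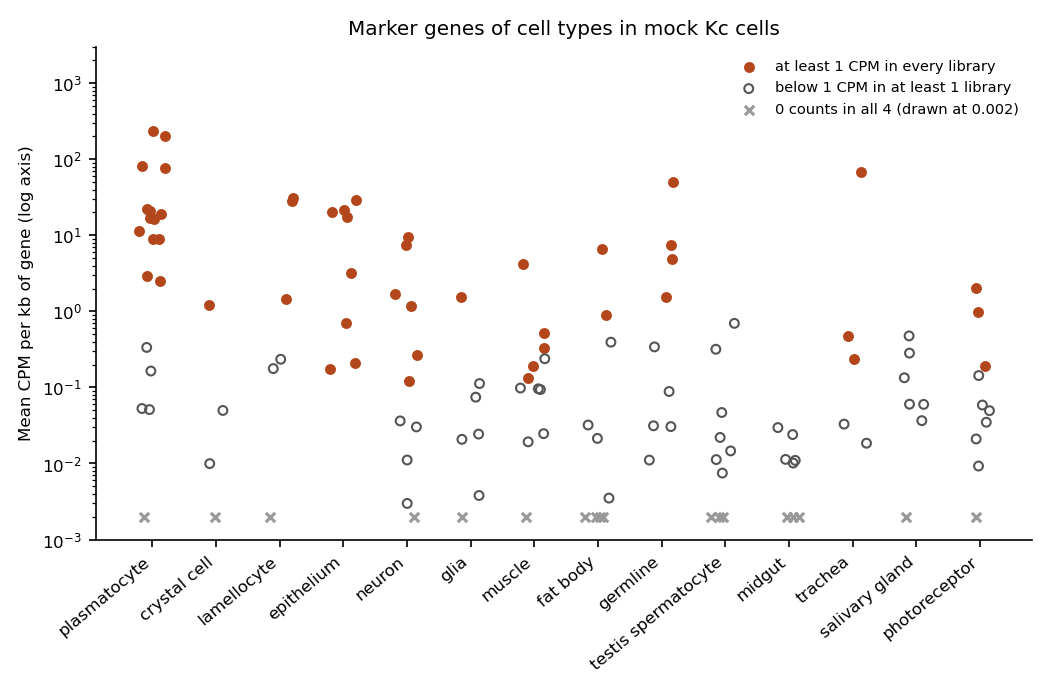
Mean CPM per kb of gene over the 4 mock libraries for the markers of 14 cell types, on a log axis. Filled points reached 1 CPM in every library, open points did not, and crosses mark 0 counts in all 4. The lists differ in length. The plasmatocyte list is the longest and has 14 filled points, the epithelium list has all its points filled, and the testis, midgut and salivary gland lists have none.

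Lists for other tissues ranged from no gene to all genes transcribed. None of 10 testis, 8 midgut or 7 salivary gland markers was transcribed. Of 11 neuron markers 6 were transcribed, and of all protein-coding genes 51.9% were. They included the active zone gene brp (328, 334, 390 and 383 CPM), the RNA-binding protein gene elav (75.3, 91.5, 123 and 126 CPM) and the sodium channel gene para (71.2, 73.8, 118 and 110 CPM). Per kb, brp, elav and para had 9.49, 7.44 and 1.19 CPM on average, below the median of 12.1 of all transcribed genes. The transmitter transporter gene VGlut did not exceed 0.0787 CPM. All 8 epithelial junction genes were transcribed, such as cora (299, 289, 361 and 333 CPM), although the polarity gene crb had only 2.76 to 4.12 CPM. Gli, a component of the 3-cell junction, was higher in replicates 1 and 2 (163 and 155 CPM) than in replicates 3 and 4 (77.8 and 81.0 CPM). Mef2, a muscle and blood cell factor, had 207, 189, 167 and 194 CPM while the muscle myosin gene Mhc had 2.48 to 3.43 CPM. The FGF gene bnl stood out in the tracheal list, at 2640, 2741, 3339 and 3032 CPM, whereas its receptor gene btl had 1.38 to 2.19 CPM.

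The sex determination and dosage compensation genes were transcribed in 9 of 11 cases, next to 51.9% of all protein-coding genes. Sxl, the switch gene of female development, had 505, 519, 681 and 638 CPM. The noncoding RNAs of the male dosage compensation complex, roX1 and roX2, did not exceed 0.326 and 0.113 CPM, while the gene of its subunit msl-2, which Sxl represses after transcription, had 33.4, 28.7, 25.1 and 28.2 CPM. The cell line is labeled female, and Y-linked genes were nearly all without counts. Of 113 genes placed on Y, 102 had 0 counts and 6 reached 1 CPM in every library. Those 6 were Ppr-Y, CR41506, kl-3, kl-5, WDY and CCY, the last with 5.73, 9.71, 10.6 and 12.5 CPM. Except for CR41506 (1.65 CPM per kb), they did not exceed 0.570 CPM per kb, and all of Y held 0.00255 to 0.00444% of counts.

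The large chromosome arms had like levels of transcribed genes, and chromosome 4 had more genes transcribed at a lower level. The share of genes transcribed was 49.7% on X (1331 of 2676 genes), 37.2% on 2L, 42.2% on 2R, 42.1% on 3L and 43.8% on 3R, and it was 55.9% on chromosome 4 (62 of 111). Median levels of transcribed genes were 12.3 CPM per kb on X, 10.6 on 2L, 12.4 on 2R, 11.9 on 3L and 13.3 on 3R. The median of X lay within the range of the large autosomal arms in every library. Chromosome 4 was lowest, with medians of 7.01, 6.60, 7.44 and 8.27 CPM per kb in replicates 1 to 4, each below the other arms in the same library. Without the filter on transcription, over all genes with a count, the lowest arm was instead 2L at 0.666 CPM per kb, with chromosome 4 at 1.04. Genes are unequal in length and type between the arms, and the part of this in the medians was not tested.

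**Figure D3:**
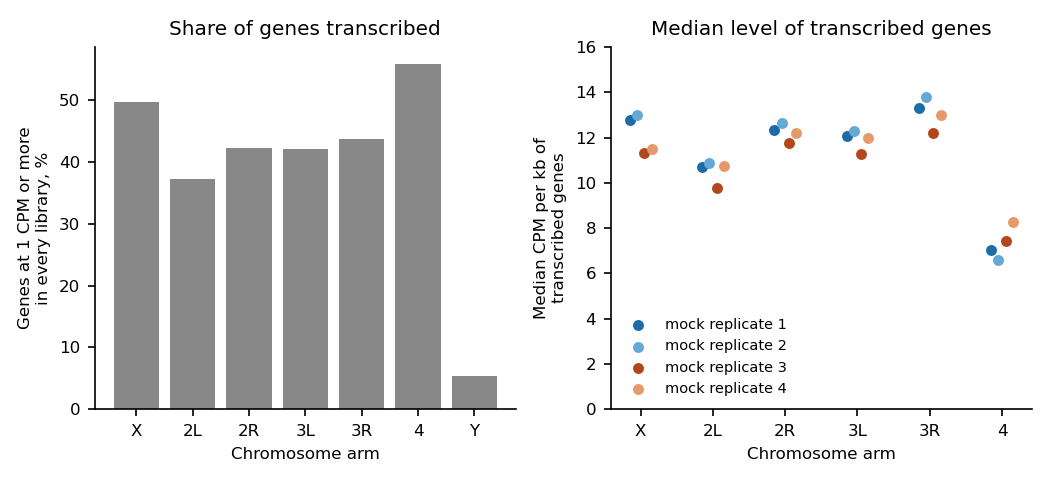
Left, percent of the genes of each chromosome arm with at least 1 CPM in every mock library. Right, median CPM per kb of those genes in each library, where chromosome 4 lies between 6.60 and 8.27 and the other arms between 9.78 and 13.8.

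Among transcribed genes, the median level per kb was lower in the classes of longer genes beyond 10 kb. It was 44.0 CPM per kb for the 18 transcribed genes of up to 0.3 kb. In the length classes between 0.3 and 10 kb the median of transcribed genes was 13.3 to 14.6 CPM per kb. It was 7.04 for genes of 10 to 20 kb, 2.56 for 20 to 50 kb, 1.13 for 50 to 100 kb and 0.575 beyond. At the same time most long genes passed the limit. Of the 92 genes over 100 kb, 86 (93.5%) reached 1 CPM in every library, compared with 16.3% of genes of 0.3 to 1 kb. A fixed number of CPM is a lower density in a longer gene. The limit therefore admits longer genes at lower densities, and its part in these medians was not tested. With a limit of 1 CPM per kb in place of 1 CPM the count of transcribed genes was 6788, a limit tried after the data were seen.

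A count of 0 had more than 1 meaning in this table. All 1679 genes whose every base is covered by other genes on the same strand had 0 counts, and none had any. A read in such a gene overlaps more than 1 gene and was not assigned, so nothing can be said of their transcription. Among the genes of the cell type and pathway lists 12 were of this kind. They included usp, the partner of the ecdysone receptor, Rel, the NF-kB factor of the Imd pathway, Hsp22, and VAChT, which lies within ChAT. Larger gene families, such as the microRNA genes, were not part of this count. Without these genes 2536 genes had 0 counts, of which 1410 were protein-coding. Reads that match several copies of a gene are likewise not assigned. Of 111 histone genes of the repeated cluster 106 had 0 counts and none was transcribed, whereas the single-copy variants His3.3B (337 CPM per kb), His4r (268) and His2Av (188) were high.

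Few members of families with tissue-specific roles were transcribed, compared with 51.9% of all protein-coding genes. Transcribed members numbered 3 of 59 odorant receptors, 6 of 60 gustatory receptors, 6 of 66 ionotropic receptors, 2 of 51 odorant binding proteins and 5 of 121 cuticle proteins. None of 16 Jonah digestive proteases, 47 accessory gland proteins or 9 chorion proteins was transcribed. The exceptions were few and mostly low. Or19b had 28.5 CPM on average. Gr94a had 35.3 CPM, and the gene asRNA:CR46089 begins 13 bases beyond its end on the same strand with 164 CPM, so reads could not be told apart from transcription of that neighborhood. None of the 262 microRNA genes reached 1 CPM in every library, and 184 of them lie within other genes.

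Genes without counts lay side by side. Leaving out genes inside others and multicopy RNA and histone genes, a choice made after the data were seen, the longest run on X held 17 genes over 38702 bases (19919641 to 19958342). On 3L a run of 12 genes (16319440 to 16333782) included retinin, a protein of the corneal lens. On 2L a run of 9 genes (3667977 to 3695020) contained the seminal fluid genes Sfp24Ba, Sfp24Bb, Sfp24Bc and Sfp24Bd and Acp24A4. On chromosome 4 no more than 2 neighboring genes lacked counts, namely yellow-h and asRNA:CR46065.

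Motif 1 is the promoter element bound by M1BP, a zinc finger protein found at many housekeeping genes. The following sequences are shown because they belong to the 5 most highly transcribed genes of at least 1 kb on X, 2L, 3L and 3R that have a match within 100 bases of their annotated start in the study's list of strongest matches. Capitals mark the 8-base core, and the c before it and the g at the last position are also common to the 5.
RpL7 (2L): caaacGGTCACACtg
cib (X): tgcacGGTCACACtg
Rac1 (3L): gccgcGGTCACACtg
CtBP (3R): tgtgcGGTCACACtg
Hrb27C (2L): gcggcGGTCACACag

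The sequences differed at the remaining positions, which belong to the Motif 1 match itself. The genes ranged from 192 to 417 CPM per kb. RpL7, a protein of the large ribosomal subunit, had 326, 333, 560 and 449 CPM per kb in replicates 1 to 4. The actin-binding gene cib had 206, 239, 384 and 307 CPM per kb, and the GTPase gene Rac1 had 205, 196, 360 and 278. The corepressor gene CtBP had 158, 188, 277 and 246 CPM per kb and the RNA-binding protein gene Hrb27C had 140, 162, 258 and 209. All 5 were higher in replicates 3 and 4, by 0.60 to 0.66 on the log2 scale. This was not so for such genes in general, since 715 genes with a listed match that were compared had a median difference of -0.04, next to -0.02 for all genes compared. The list read holds only part of the matches, and no test was made of it.

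The pairs of libraries were then compared gene by gene. A gene was counted as different if both libraries of one pair were at least 2-fold above both libraries of the other on log2(CPM + 0.5), among 7853 genes with a mean of at least 1 CPM. By this rule 18 genes (0.229%) were higher in replicates 3 and 4 and 17 (0.216%) were higher in replicates 1 and 2. No test was made, because the pairs were known from these same values. At a 1.5-fold gap the numbers were 153 (1.95%) and 204 (2.6%). The median absolute log2 difference was 0.0977 between replicates 1 and 2, 0.135 between replicates 3 and 4 and 0.237 between the means of the pairs. The counts depended on the scaling and on single libraries. Scaled by library size alone they were 8 and 26, and all compared genes had a median log2 difference of -0.14 instead of -0.02. When 1 library was left out and its partner stood for the pair, the numbers were 42 and 23 without replicate 1, 36 and 34 without replicate 2, 20 and 23 without replicate 3, and 69 and 106 without replicate 4.

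**Figure D4:**
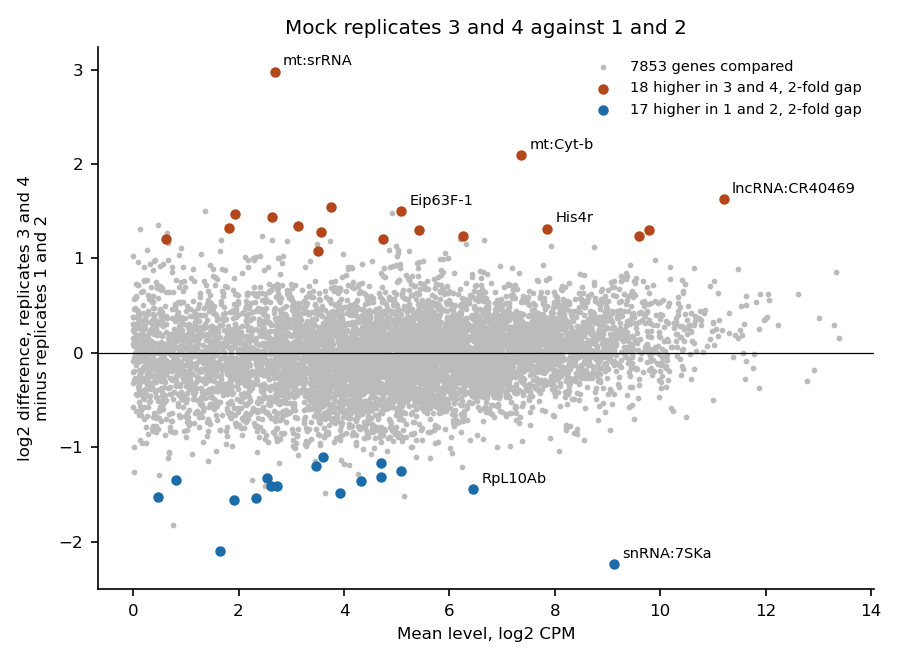
Difference between the pairs of mock libraries for each of 7853 genes, as log2 of replicates 3 and 4 minus replicates 1 and 2 against mean log2 CPM. Colored points are the 18 and 17 genes past the 2-fold gap. mt:srRNA and mt:Cyt-b lie at the top and snRNA:7SKa at the bottom.

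Genes of the mitochondrial genome were the clearest group above in replicates 3 and 4. mt:Cyt-b, a subunit of respiratory complex III, had 53.2, 72.8, 272 and 263 CPM in replicates 1 to 4, and mt:CoI, of complex IV, had 486, 537, 1417 and 1120 CPM. mt:ND1, of complex I, had 427, 492, 1182 and 988 CPM. The small ribosomal RNA mt:srRNA was lower, at 0.755, 1.43, 12.6 and 11.0 CPM, with the widest gap of all genes compared. The 11 compared genes of this genome had a median log2 difference of 1.13, with 9 of 11 above 0 and 4 past the 2-fold gap. Of all genes compared, 47.6% were above 0 and 0.229% passed this gap upward. Not all mitochondrial genes shared the direction, because mt:CoII had 60.5, 63.1, 44.6 and 49.5 CPM and mt:ND5 had 20.9, 22.7, 13.5 and 19.6 CPM. Together, mitochondrial genes held 0.197 and 0.210% of counts in replicates 1 and 2 and 0.380 and 0.356% in replicates 3 and 4.

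Nuclear genes in the same direction were of mixed function. lncRNA:CR40469, already the densest gene, had 1008, 1296, 4010 and 3127 CPM. His4r, the histone H4 gene outside the repeated cluster, had 133, 129, 380 and 281 CPM. Eip63F-1, an ecdysone-induced gene for a calcium-binding protein, had 16.1, 18.7, 51.0 and 49.4 CPM. It was the only one of 14 compared ecdysone response genes past this gap, and EcR itself had 702, 708, 702 and 699 CPM. UQCR-11, a nuclear subunit of complex III, had 25.5, 23.5, 69.6 and 53.3 CPM, and HIP, a cofactor of the Hsc70 chaperone, had 41.0, 50.3, 114 and 102 CPM. CG7694, CG34134, CG13220 and the mitochondrial ribosomal protein gene mRpL33 completed those with a mean of at least 10 CPM, at 2.11-fold to 2.91-fold on the same log2(CPM + 0.5) scale as the rule.

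Small nuclear RNAs went the other way. snRNA:7SKa, the RNA that holds the elongation kinase P-TEFb inactive, had 865, 978, 153 and 246 CPM, a 4.73-fold difference on the log2(CPM + 0.5) scale. It was the most abundant gene with a 2-fold gap in this direction. Of the minor spliceosome RNAs, snRNA:U11 had 118, 93.7, 36.5 and 55.8 CPM, and snRNA:U12 had up to 2.62 CPM in replicates 1 and 2 and up to 0.551 CPM in replicates 3 and 4. These were the 3 snRNA genes compared, and their median log2 difference was -1.52. RNaseMRP:RNA and 7SLRNA:CR32864 differed in the same direction, by -0.62 and -0.33 on the log2 scale, without reaching a 2-fold gap.

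**Figure D5:**
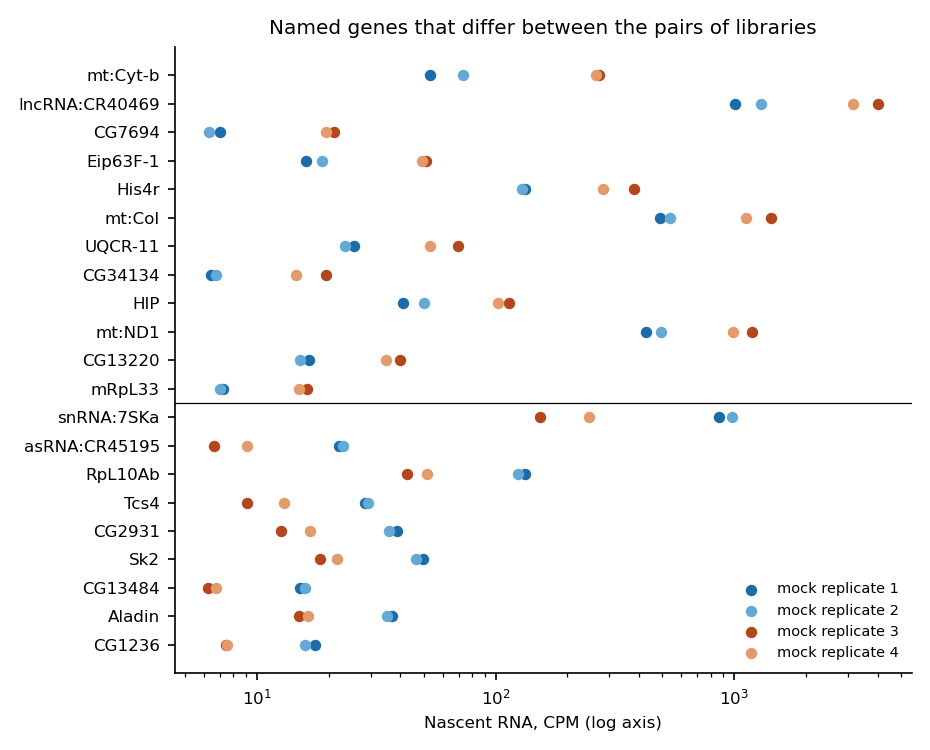
CPM in each mock library, on a log axis, of the 21 genes past the 2-fold gap with a mean of at least 10 CPM. The 12 genes above the line were higher in replicates 3 and 4 and the 9 below it were higher in replicates 1 and 2, and within a pair the points lie close together.

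Of the other genes higher in replicates 1 and 2 with a mean of at least 10 CPM, asRNA:CR45195 is noncoding and the rest encode proteins. RpL10Ab, a protein of the large ribosomal subunit, had 133, 124, 42.5 and 51.8 CPM. It moved apart from its group, since the 84 compared cytosolic ribosomal protein genes had a median log2 difference of 0.10 (-0.03 by library size alone) and it alone passed the 2-fold gap. Aladin, a nuclear pore protein gene, had 36.7, 35.3, 15.1 and 16.5 CPM and Sk2, a sphingosine kinase gene, had 49.6, 46.6, 18.3 and 21.7 CPM. Tcs4, CG2931, CG13484 and CG1236 differed 2.15-fold to 2.56-fold on the log2(CPM + 0.5) scale. The genes nearest the limit were mt:ND1 and mRpL33, with smallest gaps of 1.00 and 1.01 on the log2 scale, and Pex5 and Polr2K just outside it, with 0.98 and 0.96.

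Several groups shifted by less than this gap. Genes for translation elongation and initiation had a median log2 difference of 0.29, with 28 of 39 above 0, compared with 47.6% of all genes compared and 63.7% of the quintile with the most counts. The 8 compared neuron genes were all above 0, with a median of 0.52, and 2 of them passed the 1.5-fold gap. Tubulin genes were all below 0, with a median of -0.30 over 6, and heat shock and replication genes had medians of -0.17 and -0.19. These signs were the same under all 4 scalings. The quintile with the most counts had a median of 0.10, but of -0.03 by library size alone. In it, 27 of 1571 genes passed the 1.5-fold gap upward and 17 downward. In the second lowest quintile the numbers were 28 and 57 of 1570, so the upward counts were alike. Over all genes compared the shares were 1.95% upward and 2.6% downward. The medians relative to that of all genes were 0.12 for the highest quintile and -0.09 for the second lowest. Of 14 plasmatocyte markers compared, 7 were above 0 and none passed the 1.5-fold gap.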

How the data were processed

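Reads of 50 bp were trimmed by the authors with cutadapt 2.7, aligned to the dm6 genome with HISAT2 2.1.0, using FlyBase gene models, and counted with featureCounts 1.6.4 over whole genes in the sense direction. The resulting counts were deposited as they were, with no scaling. Gene positions and the gene length (the other column used) were read from the deposited counts table. By its default settings the program assigns no read that overlaps several genes or maps to several places. Table columns numbering 7 were not used for values, 2 of which carry the same label.

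Libraries were grouped by their labels. Counts of the 4 mock libraries, 24944604 to 29680851 per library, were scaled by TMM in edgeR 4.0.16 (R 4.3.3). The table was read with pandas 2.3.3. Of 17771 genes, 17651 matched a symbol and a biotype. No test was made, because there is 1 group and the pairs were seen in the data. Each pair of libraries differed by more than counting noise at their raw totals (chi-square per gene of 9.51 or more), so none was treated as the same library sequenced again. This measure cannot tell repeat libraries of 1 culture from libraries of separate cultures. The rule for pairs was checked on simulated counts. Named genes were the 20 highest per kb of at least 1 kb, the 10 highest by CPM, the 10 highest per kb under 1 kb, and up to 12 per direction past the 2-fold gap with a mean of at least 10 CPM. Other genes were named from the lists or after their values were seen, and 1 of the 20 highest genes is not reported here. The genes and lists were chosen with earlier results of these data known. Alternatives were other scalings (DESeq2 1.42.0 size factors among them), limits, pseudocounts, gene sets and each library left out. The planned search of promoter motifs was not run, since promoter sequences were not analysed here.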

Additional observations from a re-analysis of the deposited data

Results flagged for a closer look

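Among 123 values examined over the 4 mock libraries, 1 had a library far from the others, by Dixon's ratio at the 95% limit. The summed level of the sterol and lipid synthesis genes was 5697 CPM in replicate 3, against 5283, 5221 and 5300 CPM in replicates 1, 2 and 4. Chance flags about 1 in 20 values, so 1 flag among 123 is no more than that rate would give.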

How the results depend on the processing

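No paired analysis was possible because there is 1 group and no test. The count of transcribed genes was 6293 to 8074 over the limits, scalings and libraries left out. The shares of the highest genes and the plasmatocyte count of 14 also held within the spread or within 1.5 times. Of 36 alternative chromosome medians 8 moved by more than the spread. With a limit of 5 CPM, transcribed markers fell from 5 to 3 for muscle, from 2 to 1 for fat body and from 3 to 1 for trachea and for photoreceptor. Genes without counts numbered 4215, but 6773 with up to 3 counts allowed in every library and 2536 without genes inside others. The counts of genes that differ between pairs, 18 higher in replicates 3 and 4 and 17 higher in replicates 1 and 2, moved most. They were 8 and 26 with library size only, 31 with a pseudocount of 0.1 in the first direction, and 10 and 9 with a pseudocount of 2. With a mean of at least 10 CPM the second was 9. They were 153 and 204 at a 1.5-fold gap and 1 and 0 at a 4-fold gap. With a replicate left out they ranged from 20 to 69 and from 23 to 106, since a single library then stood for its pair. Depth limits what can be said of genes below the floor of 3 counts, and a gene of 0 counts can be unassigned rather than silent.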
